A study of Mus musculus with 2 samples.

Results

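The macrophages and related myeloid cells described here were 748 of the 14086 cells kept in the postnatal day 10 (P10) library, or 5.31% (exact binomial interval 4.95 to 5.69%). Both libraries of the series held 26113 kept cells. Members were chosen by measured transcript counts. A cell was a member when it carried a unique molecular identifier (UMI, a count of 1 captured transcript) of at least 4 of the 6 genes Plek, Cybb, Tyrobp, Laptm5, Fcer1g and Mpeg1. In addition, S100a8 and S100a9, the calgranulin genes that neutrophils express heavily, had to give under 1% of its UMIs. The other 13338 kept P10 cells are called the remaining cells. Because the members were selected on these measured values, every difference between members and remaining cells is given as a description, with no test.

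The mice carried Cdh16CreERT2, a tamoxifen-inducible recombinase under control of Cdh16, a cadherin gene known from kidney, and a floxed tdTomato reporter at the R26 locus. The design text gives both alleles as heterozygous, whereas the sample labels give the reporter as flox/flox. Pregnant females received tamoxifen from embryonic day 12.5, by injection at 0.1 mg per kg body weight or in food at 0.4 g per kg, and the sources used here do not say which library had which route. Red cells were sorted within the population stained with an antibody to CD326, which is the Epcam protein, and sequenced from transcript 3′ ends in droplets. There was 1 library of P10 and 1 of the embryonic stage E18.5, with the same genotype, tamoxifen start and batch label, and the sources used here do not say how many animals were pooled. Both are labelled as alveolar epithelial cells, and the P10 lung is labelled as embryonic. The reporter transcript was not analysed here.

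Macrophages, monocytes and dendritic cells are phagocytes of the myeloid lineage. In the lung, alveolar macrophages live in the air space and clear surfactant, interstitial macrophages lie in the tissue between air space and vessels, monocytes arrive with the blood, and dendritic cells carry antigen on MHC class II molecules to T cells. The 6 rule genes cover shared equipment of these cells. Tyrobp and Fcer1g encode signalling adaptors of activating receptors, Cybb the catalytic subunit of the phagocyte oxidase, Mpeg1 a pore-forming protein of phagosomes, Laptm5 a lysosomal membrane protein of leukocytes and Plek a cytoskeletal substrate of protein kinase C.

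The P10 library held 14503 barcodes and 171205348 UMIs, of which 417 barcodes were left out by the cell filter. The members held 15656589 UMIs, with a median of 15726 UMIs per cell against 10170.5 in the remaining cells. The P10 and E18.5 libraries shared 52 kept barcodes, none of them a member of both. Intervals given throughout are exact 95% intervals that cover counting error only, since a time point has 1 library and cells of 1 library are not replicates. CPM stands for a gene's UMIs per 1000000 UMIs summed over a set of cells.

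The rule itself sets that members carried several of its genes at once, so the detection shares given here describe the selection. Most remaining cells carried none or 1 of these genes. Tyrobp was detected in 97.5% of members and 20.8% of remaining cells, Fcer1g in 93.2% of members and 16.7% of remaining cells, and Mpeg1, the least often detected, in 75.9% of members and 9.57% of remaining cells. All 6 genes were detected in 399 members, 5 in 192 and 4 in 157. Among cells under the S100a8 and S100a9 limit, 415 lay just outside the rule with 3 genes, fewer than at 2 genes (1597 cells). Their number was lowest at 4 genes, but without that limit it was lowest at 5 genes (226 cells, against 284 at 4 genes). Under the limit, median UMIs rose from 9591.5 at 0 genes to 20809 at 4 genes and were 13850 at 6 genes. The rule genes summed to 533 CPM in cells with 4 genes and 3351 CPM in cells with 6. Cells with 4 genes had a median surfactant RNA share of 12.8% and cells with 3 genes one of 16.5%. For the limit on S100a8 and S100a9, 22 members lay between 0.5% and 1% and 24 cells with enough rule genes lay between 1% and 2%. The 22 members held a median of 3 of the 6 other neutrophil genes checked, and the 24 cells outside held 3.5.

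**Figure D1:**
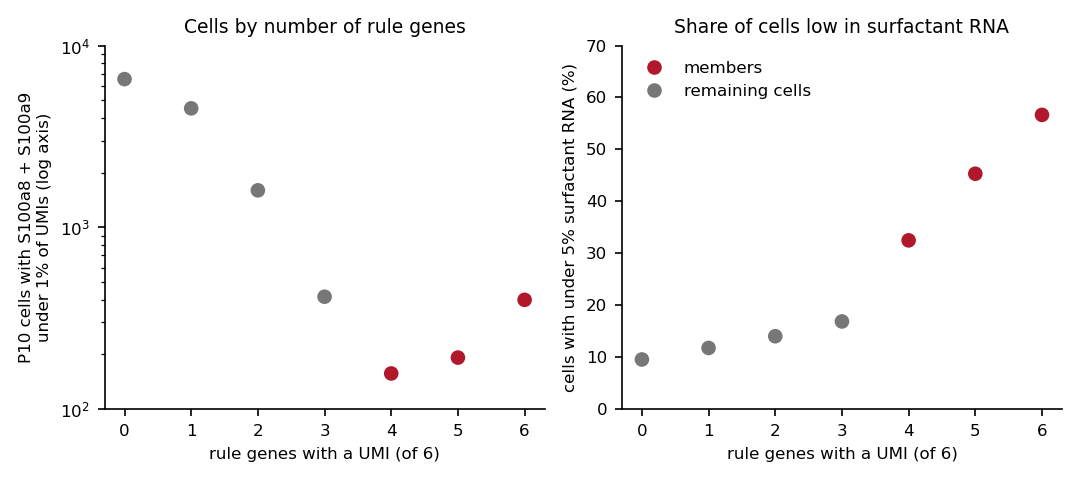
Kept P10 cells by the number of the 6 rule genes with a UMI. The left panel gives the number of cells below the S100a8 and S100a9 limit on a log axis, and the right panel the share of them with under 5% surfactant RNA, with members in red and remaining cells in grey. Members with 4, 5 and 6 genes number 157, 192 and 399, and the share low in surfactant RNA is 32.5%, 45.3% and 56.6% in them, against 16.9% at 3 genes.

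The members fell into a set with little alveolar RNA and a set with much of it. Surfactant RNA, taken as the UMIs of Sftpc, Sftpb, Sftpa1, Sftpd, Slc34a2, Cxcl15, Abca3 and Chil1, made up a median of 5.71% of a member's UMIs (5th to 95th percentile 2.10 to 18.02%), against 17.6% in the remaining cells. Between those ends the members were unevenly spread, with 318 members from 2 to 3%, 10 members from 4 to 5% and 181 members from 10 to 15%. Under 5% lay 364 members with a median share of 2.38%, close to the median of 2.50% of 581 B and T cells under 5%. At or above 5% lay 384 members with a median share of 13.1%, against 18.3% in 9809 alveolar cells of the same library. The 5th percentile of the members, 2.10%, equalled that of T cells.

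Depth moved with this split. The 384 members at or above 5% had a median of 26573 UMIs and 5652.5 genes, whereas the 364 members under 5% had 9063 UMIs and 3058 genes, and alveolar cells had 10245 UMIs and 3136 genes. Across the 748 members the depth and the surfactant RNA share had a Spearman rho of 0.596, which is a description since both use the same total. The rule genes, which chose the members, had a median of 51 UMIs per cell in the 328 members under 3%, 32 in the 36 members from 3 to 5%, 42 in the 85 members from 5 to 10% and 30 in the 299 members at or above 10%. As a share of a cell's UMIs, their medians in the same order were 0.685, 0.544, 0.200 and 0.106%. Epcam stood at 176 CPM in the members at or above 10% and at 56.6 CPM in those under 3%, against 39.0 CPM in B and T cells under 5% and 187 CPM in all remaining cells. Cdh16, the driver of the recombinase, had 16 UMIs in all members (1.02 CPM, against 0.741 CPM in remaining cells) and 0 of 4164271 UMIs in members under 5%, which allows up to 0.720 CPM. No doublet caller was run, and the part of 2 cells in 1 droplet, of taken-up material or of free RNA in these values was not tested.

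**Figure D2:**
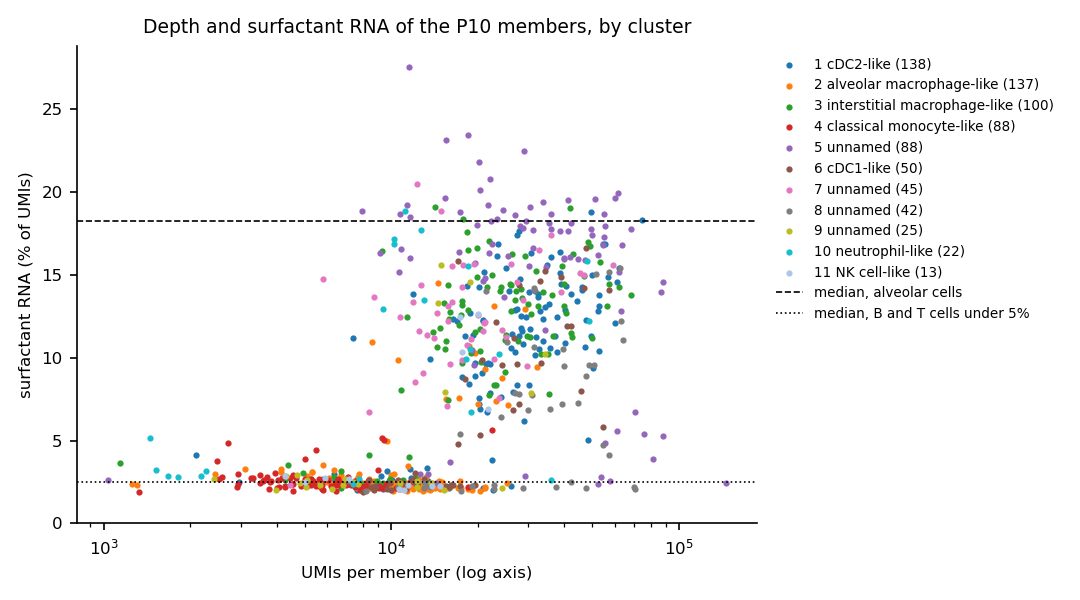
Each point is 1 of the 748 P10 members, with its UMIs on a log axis and its surfactant RNA as a percentage of UMIs, coloured by cluster. The dashed line is the median of alveolar cells (18.3%) and the dotted line that of B and T cells under 5% (2.50%). The lower band of 364 members lies along the dotted line, and the upper set of 384 members lies to the right at greater depth.

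Relative to Sftpc, Sftpa1 and Sftpb of members under 5% stood near their level in B and T cells and those of members at or above 5% near their level in alveolar cells, while lysozyme 2 stood higher in members under 5% and also in neutrophils. Per 100 Sftpc UMIs, Sftpa1 had 13.6 UMIs in members under 5% and 11.9 in members at or above 5%, against 13.3 in B and T cells under 5% and 11.5 in alveolar cells. Sftpb had 5.72 UMIs per 100 Sftpc UMIs in members under 5% and 4.79 in members at or above 5%, against 5.25 in B and T cells and 4.79 in alveolar cells. Lyz2 encodes lysozyme 2, a bactericidal enzyme of both myeloid and alveolar type 2 cells. It had 28.2 UMIs per 100 Sftpc UMIs in members under 5% and 11.6 in members at or above 5%, against 12.9 in B and T cells and 11.1 in alveolar cells. Neutrophils under 5%, here the cells with enough rule genes but at least 1% S100a8 and S100a9, had 21.6 UMIs per 100 Sftpc UMIs and 4512 CPM of Lyz2. Lyz2 reached 5479 CPM in members under 5% and 2494 CPM in B and T cells. Lyz1 stood closer, at 2.57 UMIs per 100 Sftpc UMIs in members under 5% and 2.38 in B and T cells. Over all members Lyz2 was below the remaining cells, though within 2-fold, at 10427 CPM in members and 15047 CPM in remaining cells.

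Much of the airway RNA lay in few members. Scgb1a1, the secretory protein of club cells, summed to 17956 CPM in members and 3940 CPM in remaining cells. Yet its median share of a cell's UMIs was 0.120% in members and 0.124% in remaining cells. A share of at least 1% was found in 23 members, the highest at 42.3%, and in 78 remaining cells.

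Against the remaining cells, the members stood out by genes of phagocytes, antigen presentation and inflammation. Among 9157 genes with at least 10 CPM in either set, 1010 (11% of those measured) had a ratio of at least 2 in members and 23 (0.251%) a ratio of at most 0.5. The median log2 ratio of all measured genes was 0.05. With every cell weighted equally the counts were 1277 higher and 201 lower, and with only the members under 5% surfactant RNA they were 2240 higher and 1194 lower. Genes called higher or lower below had passed this 2-fold limit, which uses the contrast that chose the members and is no test. Members at or above 5% surfactant RNA gave 11492318 of the 15656589 UMIs of members. For genes within 2-fold, the part of expression in epithelium and of alveolar RNA in members was not tested.
The gene with the largest ratio among those at 100 CPM or more in members was Mrc1 (chr2:14229392-14332057, plus strand, mm10), the mannose receptor of macrophages. It had 204 CPM in members and 3.65 CPM in remaining cells, a ratio of 56.0 (51.2 to 61.4). Ifi207, of the interferon-inducible Ifi200 family, whose members are close copies that can share UMIs, followed with 150.3 CPM in members and 2.78 CPM in remaining cells. Chil3 (chr3:106147554-106167564, minus strand), a secreted chitinase-like protein of mouse macrophages, had 700.2 CPM in members and 19.5 CPM in remaining cells, and Gpnmb, a glycoprotein of lysosome-rich phagocytes, 108 CPM in members and 2.80 CPM in remaining cells. Olr1, a receptor for oxidised lipoprotein, had 115 CPM in members and 3.195 CPM in remaining cells. Ctss, the cathepsin that trims the invariant chain of MHC class II, had 382 CPM in members and 12.0 CPM in remaining cells. The 25 genes of this rank ran down to ratios of 15.4 for Sirpa, 15.02 for Spi1 and 14.9 for Psap, and also held Rgs1, a regulator of G protein signalling (170.3 CPM in members and 7.34 CPM in remaining cells), Dab2, an endocytic adaptor (109 CPM in members and 6.29 CPM in remaining cells), and S100a4 (172 CPM in members and 9.88 CPM in remaining cells). The general leukocyte gene Ptprc, which encodes CD45, had 259.8 CPM in members and 33.3 CPM in remaining cells.

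The remaining cells were mostly alveolar cells, so a second comparison set the 364 members under 5% against the 581 B and T cells under 5%, which carried a similar share of surfactant RNA. There, 1928 of 10083 measured genes (19.1%) were higher and 1397 (13.9%) lower, with a median log2 ratio of -0.03. Chil3 had 2313 CPM in members under 5% and 19.9 CPM in B and T cells, and Mrc1 458 CPM in members under 5% and 3.37 CPM in B and T cells. All 8 pan-macrophage markers were higher, against 7 of 8 over the remaining cells, where Cd14, the co-receptor for endotoxin, stayed within 2-fold (87.6 CPM in members and 50.9 CPM in remaining cells). Of the 13 genes of leukocyte actin and integrins, 12 were higher over the remaining cells, but only 4 over B and T cells, where 3 were lower. Coro1a, an actin regulator of leukocytes, had 175 CPM in members and 29.4 CPM in remaining cells, and 327 CPM in members under 5% and 671 CPM in B and T cells. Of the B and T cell markers, 7 of 7 and 8 of 8 were lower in members under 5%. Fibroblast genes were also higher than in B and T cells, 7 of 7 with a median log2 ratio of 3.26, while none of 5 was higher over the remaining cells. Among all members the fibroblast markers summed to 1470.5 CPM in 1 cluster of 42 members and to 41.1 CPM in the other members, against 62.6 CPM in B and T cells under 5%. Airway markers were higher in 6 of 6, with a median log2 ratio of 4.90 and sums of 38606 CPM in members under 5% and 1189 CPM in B and T cells, and epithelial markers in 4 of 10. Scgb1a1 gave at least 1% of UMIs in 9 of the 364 members under 5%. Its median share was 0.116% in these members and 0.115% in B and T cells under 5%.

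Receptors and their signalling chains were higher as a group. Of 20 measured genes of Fc receptors and signalling through immunoreceptor tyrosine-based motifs (ITAMs), 20 were higher over the remaining cells, with a median log2 ratio of 3.21 beside 0.05 over all genes. Fcgr1, the high-affinity receptor for IgG, had 12.8 CPM in members and 0.277 CPM in remaining cells. Fcgr2b, the inhibitory IgG receptor, had 42.3 CPM in members and 1.33 CPM in remaining cells, and Clec4n, the lectin Dectin-2, 43.2 CPM in members and 1.17 CPM in remaining cells. Sirpa, the receptor for CD47 on other cells, had 157 CPM in members and 10.2 CPM in remaining cells.
Over B and T cells Sirpa and other receptors stayed higher, while several signalling enzymes that lymphocytes share did not. Of 21 measured genes 14 were higher, among them Sirpa with 337 CPM in members under 5% and 7.49 CPM in B and T cells. The kinase Syk, which binds the ITAMs of Tyrobp and Fcer1g, had 152 CPM in members and 18.8 CPM in remaining cells, but 305 CPM in members under 5% and 319 CPM in B and T cells. Btk, a kinase of B cell and myeloid receptors, had 33.9 CPM in members under 5% and 55.1 CPM in B and T cells and stayed within 2-fold. Inpp5d, an inositol phosphatase that limits these receptors, was the 1 gene lower than in B and T cells, at 188 CPM in members under 5% and 498 CPM in B and T cells.

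Growth factor receptors and transcription factors of the lineage were higher as well. Csf1r, the receptor for CSF1 and IL-34 on which macrophages depend, had 74.0 CPM in members and 8.36 CPM in remaining cells. Csf2rb, the shared chain of the GM-CSF receptor, had 77.0 CPM in members and 5.62 CPM in remaining cells. Of 7 measured receptors for colony-stimulating factors, FLT3 ligand and TGF-beta, 5 were higher, and the TGF-beta receptors Tgfbr1 and Tgfbr2 stayed within 2-fold, with Tgfbr2 at 122 CPM in members and 91.6 CPM in remaining cells.
Spi1 (chr2:91082390-91115756, plus strand, mm10) encodes PU.1, the factor that sets the myeloid programme. It had 123 CPM in members and 8.22 CPM in remaining cells, a ratio of 15.02 (14.0 to 16.1), and 248 CPM in members under 5% against 25.5 CPM in B and T cells. Of 21 transcription factors on the list 14 were higher. Irf8, needed for type 1 dendritic cells, had 65.7 CPM in members and 4.79 CPM in remaining cells, and Zeb2 538 CPM in members and 51.7 CPM in remaining cells. Tfec, a relative of Mitf found in macrophages, had 19.7 CPM in members and 0.277 CPM in remaining cells. Klf4 and Cebpa, which lung epithelium also expresses, were among the factors within 2-fold, and the reason was not tested. Klf4 had 181 CPM in members and 183 CPM in remaining cells, and Cebpa 96.7 CPM in members and 134 CPM in remaining cells. In members under 5% alone, Klf4 stood at 201 CPM and Cebpa at 48.3 CPM. Over B and T cells, Irf4, Ikzf1 and Klf2, which lymphocytes use too, were lower, with Ikzf1 at 115 CPM in members under 5% and 381 CPM in B and T cells.

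The complement group was led by C1q, the recognition unit of the classical pathway, whose 3 chains are encoded side by side on chromosome 4. C1qa (chr4:136895917-136898803, minus strand) had 219 CPM in members and 6.404 CPM in remaining cells, a ratio of 34.3 (31.9 to 36.8). C1qb (chr4:136880129-136886187, minus strand) had 176 CPM in members and 4.74 CPM in remaining cells and C1qc (chr4:136889804-136893065, minus strand) 124 CPM in members and 2.51 CPM in remaining cells. In members under 5% C1qa, C1qb and C1qc stood at 185.4, 165 and 115 CPM, against 8.24, 2.998 and 2.998 CPM in B and T cells. All 3 chains were thus higher in both comparisons. C3ar1, the receptor for the fragment C3a, had 32.5 CPM in members and 0.651 CPM in remaining cells, and C5ar1, the receptor for C5a, 53.9 CPM in members and 6.63 CPM in remaining cells. C3 itself, which epithelium makes too, had 118 CPM in members and 132 CPM in remaining cells and was the only one of 12 measured complement genes that was not higher.
The promoters of C1qb and C1qc (from 250 bases before to 50 after the RefSeq start of the gene, GRCm38.p6) are shown because these neighbours were higher together and had their highest level in the same cluster of members. Capitals mark the word GAGGAA or its reverse complement TTCCTC, a core of sites that PU.1 is known to bind. The gene positions above are those of GENCODE, whose starts of both genes differ. Counted from the GENCODE start, the C1qb window runs from 263 bases before to 36 after and the C1qc window from 99 bases before to 200 after.
C1qb promoter, chr4:136886151-136886450, minus strand: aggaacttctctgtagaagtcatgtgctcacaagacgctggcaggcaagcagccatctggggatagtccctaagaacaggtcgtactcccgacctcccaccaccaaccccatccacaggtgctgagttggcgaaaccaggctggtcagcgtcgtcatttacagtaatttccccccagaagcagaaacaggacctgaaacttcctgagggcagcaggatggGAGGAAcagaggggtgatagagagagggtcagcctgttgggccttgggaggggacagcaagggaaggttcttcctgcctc
C1qc promoter, chr4:136892865-136893164, minus strand: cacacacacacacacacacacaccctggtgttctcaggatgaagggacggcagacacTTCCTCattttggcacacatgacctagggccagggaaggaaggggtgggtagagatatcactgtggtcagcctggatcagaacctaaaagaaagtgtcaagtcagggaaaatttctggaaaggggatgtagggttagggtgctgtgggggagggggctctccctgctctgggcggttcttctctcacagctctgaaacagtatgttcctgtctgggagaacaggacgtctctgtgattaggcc
The C1qb promoter held the word 1 time on the printed strand. The C1qc promoter held it 1 time on the other strand, as part of the longer word GAGGAAGT. Among 32851 promoters of the same length, 28.3% held GAGGAA on either strand and 3.202% held GAGGAAGT, so such matches are common and describe letters only. Other words searched on both strands share letters with these. The C1qb promoter also held ACTTCCT, the reverse complement of AGGAAGT, apart from the marked word and not in capitals. The C1qc promoter held ACTTCCT at its marked word. GAGGAAG was found in 13.6% of promoters, the word AGGAAGT in 9.35% and the word GGGAAGT in 5.72%.

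Scavenging and lipid handling split into genes of macrophages and genes that alveolar type 2 cells share. Of 17 genes 12 were higher over the remaining cells and 15 over B and T cells. Marco, a scavenger receptor of alveolar macrophages, had 54.1 CPM in members and 0.921 CPM in remaining cells, and Msr1, the class A scavenger receptor, 17.9 CPM in members and 0.490 CPM in remaining cells. Trem2, a lipid receptor that signals through Tyrobp, had 20.9 CPM in members and 2.04 CPM in remaining cells. The fatty acid receptor Cd36 lay within 2-fold of the remaining cells, with 621 CPM in members and 636 CPM in remaining cells, as did the fatty acid carrier Fabp5 (1326 CPM in members and 1572 CPM in remaining cells). Both were higher than in B and T cells, Cd36 with 655 CPM in members under 5% and 132 CPM in B and T cells, and Fabp5 with 1331 CPM in members under 5% and 368 CPM in B and T cells. Apoe, the lipid carrier, had 1124 CPM in members and 479.7 CPM in remaining cells.

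Of 17 genes of lysosome and cathepsins 9 were higher over the remaining cells and 15 over B and T cells. Psap, the precursor of the saposins, had 798 CPM in members and 53.4 CPM in remaining cells. Ctsd, the aspartic protease of lysosomes, had 819.6 CPM in members and 145 CPM in remaining cells, and 2404 CPM in members under 5% against 118 CPM in B and T cells. Atp6v0d2, a subunit of the vacuolar proton pump, had 115 CPM in members and 2.96 CPM in remaining cells. Type 2 cells store surfactant in lysosome-related organelles, and genes such as Lamp2 (307 CPM in members and 322 CPM in remaining cells) and Npc2 (4055 CPM in members and 6117 CPM in remaining cells) were not higher in members.
The phagocyte oxidase list had 5 of 5 genes higher, with the lowest ratio, 2.34, for the membrane subunit Cyba, yet Rac2, its small GTPase, had 157 CPM in members under 5% and 480.0 CPM in B and T cells. Of 9 measured genes for the uptake of dying cells 5 were higher, such as the receptor kinases Mertk (106 CPM in members and 24.7 CPM in remaining cells) and Axl (45.9 CPM in members and 3.81 CPM in remaining cells). Gas6, a ligand of both, had 139 CPM in members and 224 CPM in remaining cells. Fth1, the heavy chain of the iron store ferritin, had 7851 CPM in members and 3162 CPM in remaining cells, within an iron and haem list of 4 of 6 genes higher.

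Among secreted signals, the chemokines were one of the groups furthest from the remaining cells. Of 14 measured chemokines 12 were higher, with a median log2 ratio of 4.75. Ccl4, which attracts leukocytes, had 302 CPM in members and 8.27 CPM in remaining cells, and Ccl6 675 CPM in members and 27.7 CPM in remaining cells. Ccl2, the main ligand of CCR2, had 66.2 CPM in members and 1.83 CPM in remaining cells, and Cxcl2, which attracts neutrophils, 863 CPM in members and 151 CPM in remaining cells. Cxcl1 and Cxcl16, which other lung cells make too, stayed within 2-fold, at 59.7 CPM in members and 48.9 CPM in remaining cells and 126 CPM in members and 72.9 CPM in remaining cells. Among the receptors, Ccr2, by which monocytes leave the marrow, had 39.8 CPM in members and 1.41 CPM in remaining cells, within a list of 6 of 7 genes higher.
Of 15 cytokines and growth factors 11 were higher, with a lower median log2 ratio of 2.38. Tnf had 134 CPM in members and 6.53 CPM in remaining cells, and Il1b 195 CPM in members and 37.4 CPM in remaining cells. Il12b, a subunit of IL-12 and IL-23, had 44.6 CPM in members and 0.734 CPM in remaining cells, and Igf1, a growth factor of tissue macrophages, 41.5 CPM in members and 4.88 CPM in remaining cells. Growth factors of epithelium were not higher, with Areg at 178 CPM in members and 228 CPM in remaining cells and Vegfa at 45.4 CPM in members and 58.9 CPM in remaining cells. Immediate early genes, which tissue dissociation can induce, had 1 of 14 genes higher and a median log2 ratio of 0.08, and Fos stood at 2065 CPM in members and 2695 CPM in remaining cells. Over B and T cells 7 of 15 of them were higher, with Fos at 1461 CPM in members under 5% and 734 CPM in B and T cells.

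Antigen presentation genes were higher in members, over a P10 background that was itself high. All 8 measured genes of MHC class II were higher than in the remaining cells, with a median log2 ratio of 2.09. H2-Eb1, a beta chain, had 775 CPM in members and 102 CPM in remaining cells, and H2-Aa, an alpha chain, 885 CPM in members and 226 CPM in remaining cells. Cd74, the invariant chain, had 2608 CPM in members and 1161 CPM in remaining cells. A Cd74 UMI was seen in 94.5% of members and 94.6% of remaining cells, and after thinning each cell to 2000 UMIs in 73.9% of members and 75.7% of remaining cells. Over B and T cells, many of which present antigen, 2 of 9 class II genes were higher and 2 lower, and Cd74 had 2974 CPM in members under 5% and 2743 CPM in B and T cells.
All 5 measured costimulation genes were higher than in the remaining cells, and Cd86, a ligand of CD28, had 311 CPM in members and 11.5 CPM in remaining cells. Havcr2, the receptor TIM-3, had 66.0 CPM in members and 1.90 CPM in remaining cells. Sensors of microbial products had 7 of 11 genes higher, such as the inflammasome sensor Nlrp3 (157 CPM in members and 11.2 CPM in remaining cells) and the receptor Tlr2 (35.4 CPM in members and 2.73 CPM in remaining cells), whereas Tlr4 had 40.7 CPM in members and 36.9 CPM in remaining cells. Interferon response genes had 7 of 11 higher over the remaining cells and 4 of 11 over B and T cells. Isg15, a ubiquitin-like protein, had 45.2 CPM in members and 16.6 CPM in remaining cells.

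**Figure D3:**
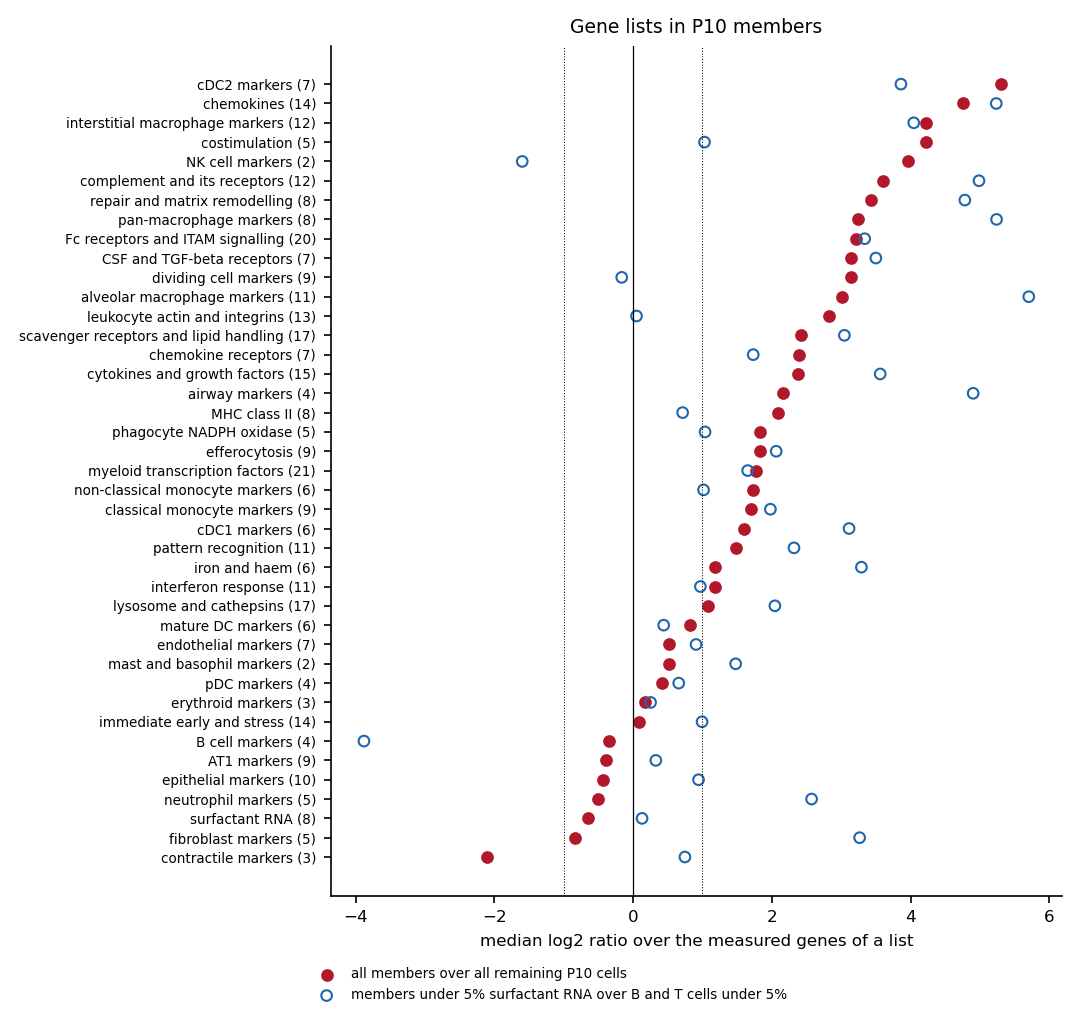
Median log2 ratio of each gene list in P10 members, with the number of genes measured in the first comparison in brackets. Filled points set all members over all remaining P10 cells, open points set members under 5% surfactant RNA over B and T cells under 5%, and dotted lines mark a ratio of 2 in either direction. Chemokines stand at 4.75 and 5.23, MHC class II at 2.09 and 0.71, and leukocyte actin and integrins at 2.82 and 0.05.

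Few genes were 2-fold lower in the summed members, and surfactant RNA stood at 103861 CPM in members and 167708 CPM in remaining cells. Members at or above 5%, the deeper ones, give most of these sums. In members under 5% alone, 1194 genes were lower and Epcam stood at 60.3 CPM, against 187 CPM in remaining cells. The 10 lowest ratios among genes at 100 CPM or more in remaining cells ran from 0.572 for Mid1ip1, a regulator of fatty acid synthesis (177 CPM in members and 309.9 CPM in remaining cells), to 0.611 for Klhl29, and none passed the 2-fold limit. They included Lyz1 (1568 CPM in members and 2640.1 CPM in remaining cells), Scd2, a fatty acid desaturase (126 CPM in members and 212 CPM in remaining cells), and Irx1, a homeobox gene of lung epithelium (117 CPM in members and 192 CPM in remaining cells). The 8 surfactant genes lay within 2-fold, with a median log2 ratio of -0.65, and 9 of the 10 epithelial genes did, with a median of -0.44. All 4 measured airway genes were higher in the summed counts, Scgb1a1 among them. Epcam, whose protein was used in the sort, had 139 CPM in members and 187 CPM in remaining cells, and a UMI in 61.0% of members and 75.7% of remaining cells. After thinning to 2000 UMIs, Epcam was seen in 16.9% of members, 29.6% of remaining cells and 11.6% of B and T cells. Contractile genes were the exception, with 3 of 3 lower, such as Acta2, smooth muscle actin, at 11.5 CPM in members and 55.9 CPM in remaining cells. Over B and T cells the contractile list lay on the other side, with a median of 0.75.

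Dividing cells were more frequent among members. At least 5 of 15 dividing cell markers were detected in 63 members, 8.42% (6.53 to 10.6%), against 0.270% (0.189 to 0.373%) of remaining cells and 2.79% (1.73 to 4.23%) of 753 B and T cells. Members were deeper, so cells were also thinned to 2000 UMIs, which left out 9 members, 325 remaining cells and 9 B and T cells. At least 3 markers were then found in 3.52% (2.31 to 5.11%) of members, 0.169% (0.106 to 0.256%) of remaining cells and 1.88% (1.03 to 3.14%) of B and T cells. The thinned intervals of members and of B and T cells overlapped. Of 9 measured dividing cell genes, 9 were higher over the remaining cells and of 12 none over B and T cells. Mki67, the Ki-67 antigen, had 50.1 CPM in members and 6.04 CPM in remaining cells.

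The members were not of 1 kind. Clustered alone and without the surfactant genes, they fell into 11 clusters, whose leading genes define the clusters and are no finding. Of these, 5 clusters with 513 members, 68.6% (65.1 to 71.9%), were named macrophage-, monocyte- or dendritic-like from the marker lists. Another 4 clusters with 200 members, 26.7%, stayed unnamed, and 35 members lay in a neutrophil-like and an NK cell-like cluster. By cluster name, the label of macrophages and related myeloid cells thus covered most members and not all. Of the 513 members in named clusters, 296, or 57.7% (53.3 to 62.0%), lay under 5% surfactant RNA. Whether the others, with more alveolar RNA, were mixed droplets was not tested.

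The alveolar macrophage-like cluster held 137 members, and all 15 markers of that class were raised in it. Marco stood at 516 CPM, Chil3 at 6112 CPM, Fabp4, a fatty acid carrier, at 655 CPM, and Atp6v0d2 at 1060.4 CPM. Ctsd reached 6335 CPM and Fth1 37810.1 CPM, while H2-Aa was low at 63.5 CPM. This was also the cluster with the most complete set of rule genes, all 6 in 92.7% of its cells, and its median surfactant RNA share was 2.35%, with 89.1% of cells under 5%. The 355 cells called B cells and the 398 called T cells, with no limit on surfactant RNA, had medians of 2.73% and 2.57%.
The interstitial macrophage-like cluster held 100 members and the C1q genes at their highest level, with C1qa at 1121 CPM, C1qb at 855 CPM and C1qc at 659.8 CPM. Pf4 and Ccl12, chemokines of tissue macrophages, stood at 444 and 186 CPM, Apoe at 4562 CPM and the factor Maf at 225 CPM. Its median surfactant RNA share was 12.4%, and 19% of its cells lay under 5%.
The cluster named cDC2-like (type 2 conventional dendritic cells) held 138 members. Mgl2, a lectin, stood at 229 CPM, the chemokines Ccl17 and Ccl22 at 371 and 123 CPM, Il12b at 113 CPM and H2-Aa at 2018 CPM. Mmp12, a macrophage elastase, was also among its leading genes at 169 CPM. The cDC1-like cluster held 50 members, with the chemokine receptor Xcr1 at 105 CPM, Irf8 at 477 CPM and H2-Aa at 3196 CPM. Its cells were nearly without Cybb, at 9.31 CPM, against 1191 CPM in the alveolar macrophage-like and 1421 CPM in the classical monocyte-like cluster, and all 6 rule genes were found in 16% of them.
The classical monocyte-like cluster held 88 members, with Plac8 at 5154 CPM, Ly6c2 at 749 CPM, Vcan at 296 CPM and Ccr2 at 227 CPM. Besides 8 of 9 classical markers, 5 of 8 markers of non-classical monocytes were raised in it, such as Treml4 at 209.7 CPM. Its Csf1r level of 451 CPM and Spi1 level of 679.6 CPM compare with 31.8 and 219 CPM in the alveolar macrophage-like cluster. It was the shallowest, with a median of 5545 UMIs, and 96.6% of its cells lay under 5% surfactant RNA.

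Of the 4 unnamed clusters, 3 had markers of other lineages raised. The largest, with 88 members, was led by the airway genes Scgb3a1 (2335 CPM) and Scgb1a1, had a median of 30701.5 UMIs and 16.7% surfactant RNA, and held all 6 rule genes in 6.82% of its cells. Another, with 42 members, had all 8 endothelial and 6 of 7 fibroblast markers raised at a median of 31372 UMIs. A cluster of 45 members was led by monocyte genes such as Plac8 (1043 CPM) but had only 2 of 9 classical markers raised and a median surfactant RNA share of 12.6%, with no marker of a list outside the monocytes raised. A cluster of 25 members had 7 of 7 B cell and 4 of 7 plasmacytoid dendritic cell markers raised. Under 5% surfactant RNA lay 13.6% of the cells of the airway-led cluster, 45.2% of the one with endothelial markers, 2.22% of the one led by monocyte genes and 76% of the one with B cell markers, while the cDC2-like and cDC1-like clusters had 30.4% and 56%. Whether these members were mixed droplets was not tested. Dividing cell markers summed to 355 CPM in the cDC2-like, 546 CPM in the cDC1-like, 188 CPM in the interstitial macrophage-like, 212 CPM in the alveolar macrophage-like and 37.4 CPM in the classical monocyte-like cluster.

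**Figure D4:**
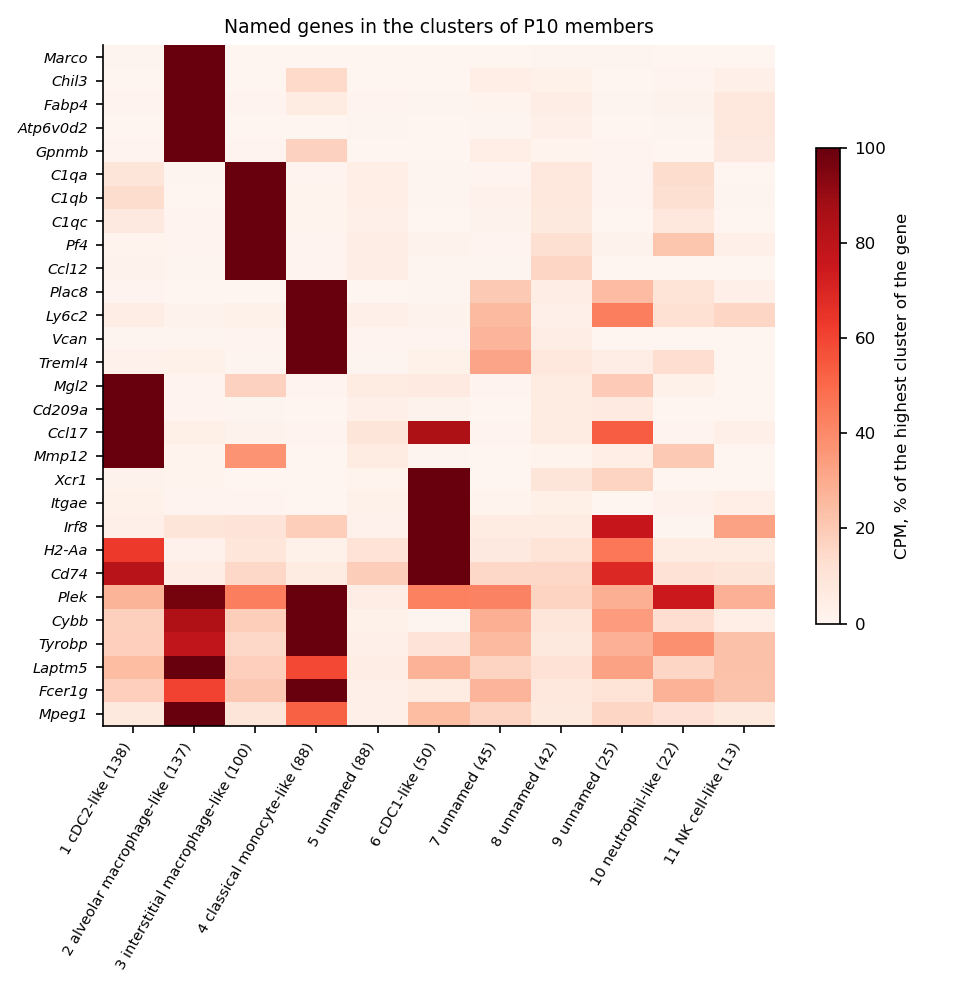
Level of 29 genes, chosen as leading or marker genes, in the 11 clusters of P10 members, as a percentage of the gene's level (CPM) in the cluster where it is highest. Marco and Chil3 peak in the alveolar macrophage-like cluster at 516 and 6112 CPM, C1qa in the interstitial macrophage-like one at 1121 CPM, and Plac8 in the classical monocyte-like one at 5154 CPM.

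The same rule applied to the E18.5 library gave 1865 cells, 15.5% (14.9 to 16.2%) of 12027, with 34142653 UMIs. A sum over members cannot tell a different mix of cell kinds from a different level per cell. With 1 library per time point, age cannot be told apart from dissociation, sort and library, and the part of each was not tested. P10 members stood at more MHC class II and dendritic RNA and at less RNA of alveolar type 1 genes, Spp1 and Fn1 than E18.5 members. Of 9453 genes measured in members, 1371 (14.5%) were at least 2-fold higher at P10 and 900 (9.52%) at least 2-fold lower, with a median log2 ratio of 0.10.

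All 8 measured MHC class II genes were higher at P10, with a median log2 ratio of 4.94. H2-Aa had 885 CPM in P10 members and 13.004 CPM in E18.5 members, a ratio of 68.1 (61.9 to 74.99), and Cd74 2608 CPM in P10 members and 70.8 CPM in E18.5 members. The remaining cells went the same way, with H2-Aa at 226 CPM at P10 and 6.25 CPM at E18.5, and a median of 3.79 for the list. Markers of type 2 dendritic cells were higher in 7 of 7, such as Ccl17 with 123 CPM in P10 members and 6.09 CPM in E18.5 members, and costimulation genes in 5 of 5, such as Cd86 with 311 CPM in P10 members and 72.0 CPM in E18.5 members. The medians of these 2 lists were 4.33 and 2.14 in members. The remaining cells went the same way, with medians of 3.39 and 1.64, except for Tnip3 (-0.47) and Cd80 (-0.24). Il12b had 44.6 CPM in P10 members and 0.732 CPM in E18.5 members, and its log2 ratio in the remaining cells was 3.92. Chil3 had 700.2 CPM in P10 members and 45.3 CPM in E18.5 members, a ratio of 15.5 (14.7 to 16.3), with 19.5 CPM in the remaining cells at P10 and 4.18 CPM at E18.5.

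Counts for pan-macrophage, Fc receptor and alveolar macrophage genes were near the background of 14.5% higher and 9.52% lower over all genes. More of the interstitial macrophage markers were higher. Of the 8 pan-macrophage markers 1 was higher and none lower at P10, with a median log2 ratio of -0.03, and Spi1 had 123 CPM in P10 members and 139 CPM in E18.5 members. Of 20 Fc receptor and ITAM genes 2 were higher and 1 lower. Of 11 alveolar macrophage markers 2 were higher and 2 lower, with a median of -0.55. That median was 0.76 in members under 5% surfactant RNA at both ages. Interstitial macrophage markers were higher in 6 of 12, with a median of 1.06 that fell to 0.34 in members under 5% at both ages. Cd163, a haemoglobin scavenger, had 11.5 CPM in P10 members and 1.20 CPM in E18.5 members.

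Genes lower at P10 included inflammatory and matrix genes. Spp1, which encodes osteopontin, had 7.41 CPM in P10 members and 216 CPM in E18.5 members, a ratio of 0.0342 (0.0283 to 0.0411), while the remaining cells had 1.47 CPM at P10 and 7.23 CPM at E18.5. Fn1, fibronectin, had 45.1 CPM in P10 members and 301 CPM in E18.5 members, and the remaining cells moved about as far, with 13.9 CPM at P10 and 83.6 CPM at E18.5. Osm, the cytokine oncostatin M, had 17.4 CPM in P10 members and 151 CPM in E18.5 members, with 2.18 CPM at P10 and 7.08 CPM at E18.5 in the remaining cells. Of 10 genes of repair and matrix remodelling 4 were higher and 6 lower at P10, with a median log2 ratio of -1.13 that became 0.30 in members under their median surfactant RNA share and 2.48 after subtraction of the alveolar profile. Of 15 cytokines and growth factors 2 were higher and 6 lower. Chemokines were split, with 6 of 14 higher and 4 lower. Ccl5 had 78.0 CPM in P10 members and 3.92 CPM in E18.5 members, with 8.78 CPM at P10 and 0.301 CPM at E18.5 in the remaining cells. Ccl3 had 145 CPM in P10 members and 554 CPM in E18.5 members, with 7.09 CPM at P10 and 25.6 CPM at E18.5 in the remaining cells. Cxcl2 had 863 CPM in P10 members and 3359.6 CPM in E18.5 members, with 151 CPM at P10 and 199.9 CPM at E18.5 in the remaining cells.

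Alveolar type 1 genes, Dlk1 and Vegfa also lay far to the lower side at P10, and the remaining cells went the same way. All 10 alveolar type 1 markers were lower at P10, with a median log2 ratio of -3.74 in members and -3.96 in the remaining cells. Hopx had 42.0 CPM in P10 members and 2010.4 CPM in E18.5 members, and 29.4 CPM in the remaining cells at P10 and 2229 CPM at E18.5. Dlk1, a gene of fetal tissues, had 2.81 CPM in P10 members and 941 CPM in E18.5 members, with 4.52 CPM at P10 and 1777 CPM at E18.5 in the remaining cells. Vegfa had 45.4 CPM in P10 members and 624 CPM in E18.5 members, and 58.9 CPM at P10 and 611 CPM at E18.5 in the remaining cells. The surfactant RNA share of the members had a median of 5.71% at P10 and 0.811% at E18.5, and its part in these differences was not tested. The ratios also moved with gene length, with a median log2 ratio of -0.34 over the shortest 20% of genes and 0.59 over the longest 20%.

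**Figure D5:**
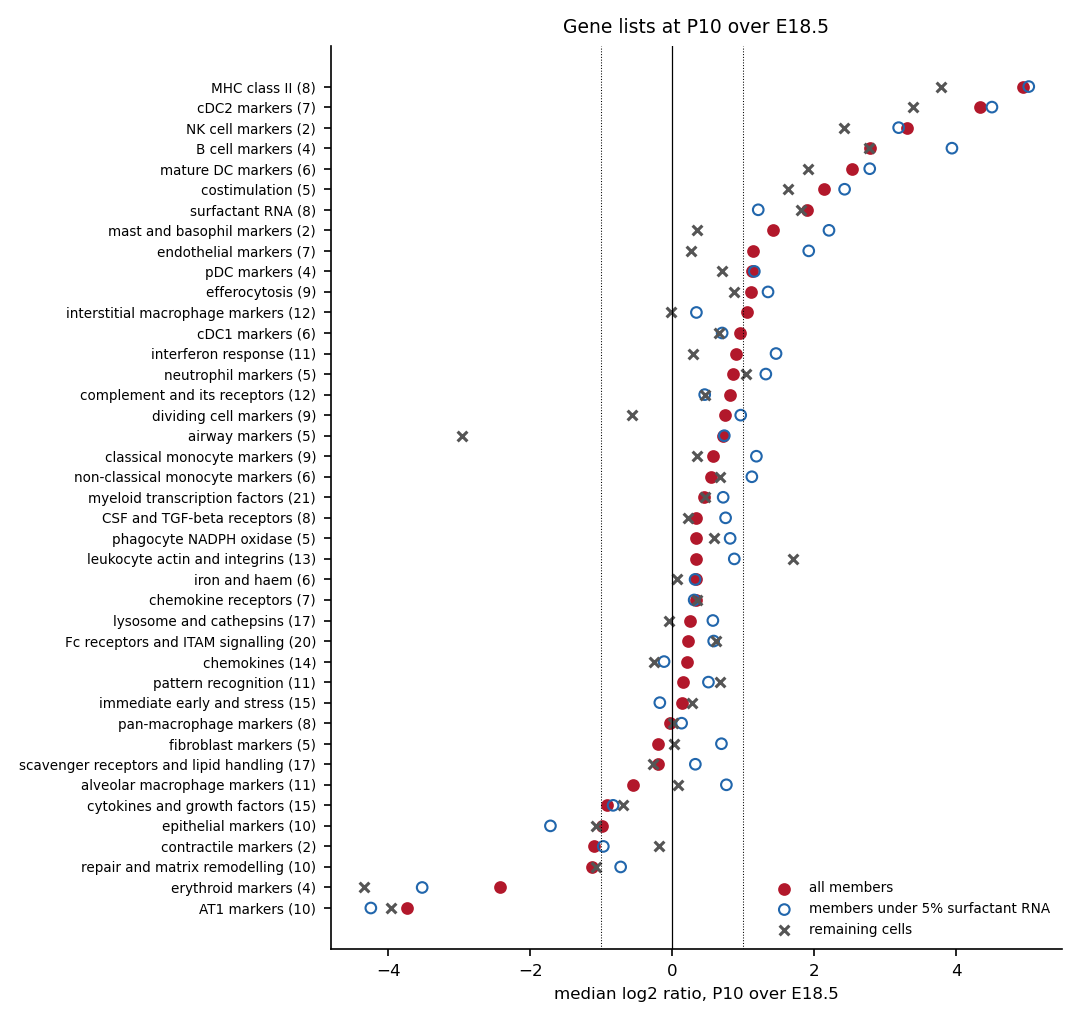
Median log2 ratio, P10 over E18.5, of each gene list. Filled points are all members, open points members under 5% surfactant RNA at both ages, and crosses the remaining cells. MHC class II lies at 4.94 in members and 3.79 in the remaining cells, alveolar type 1 markers at -3.74 and -3.96, and pan-macrophage markers at -0.03 and 0.02.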

How the data were processed

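The authors deposited gene by cell matrices of UMI counts, 1 per library, and Cell Ranger 7.0.1 produced them, per the file headers. The submitters' processing notes name mm10 and Seurat 4.0.0. The counts were not normalized by the authors as far as their whole-number values show, and other steps before deposit are not given in the sources used here. Both matrices list 32285 genes.

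Barcodes were kept from 500 genes and 1000 UMIs upward and up to a mitochondrial share of 20%, doublets were neither called nor removed, and members were found by the rule given in the report. The members and the 44 gene lists were chosen with earlier results of these data known. UMIs were summed over sets of cells and given as CPM, and a gene was measured at 10 CPM or more in either set. Ratios have conditional binomial, sums Poisson and shares Clopper-Pearson 95% intervals. With 1 library per time point no test between groups was made and no p-value is given. The single libraries are not replicates. B cells and T cells had at least 3 markers of their class, and alveolar cells at most 1 rule gene and at least 5% surfactant RNA. For a gene without a UMI, 3 counts set the upper limit.

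Members were clustered on 2000 variable genes, 20 principal components and 15 neighbours (Leiden, resolution 0.5; scanpy 1.11.5, Python 3.11.15, numpy 2.4.6, scipy 1.17.1, pandas 2.3.3). A marker counted as raised in a cluster when detected in 25% or more of the cells and at 3-fold the level of the other members with 10 CPM added, a rule set after the clusters were seen. The genes named were the 25 of largest ratio at 100 CPM or more, the 10 of smallest ratio, the 15 of largest and smallest ratio between time points at 50 CPM or more, and members of the lists, of which the text shows a selection made with values known. Close copies such as Lyz1 and Lyz2, or the class II chains, can share UMIs. The summing was tested on simulated counts. Promoters came from RefSeq (GRCm38.p6) and gene positions from GENCODE (mm10). Alternatives covered the rule, the cell filter, the limit on low values, weighting, surfactant RNA, the comparison cells, clustering and gene length.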

Additional observations from a re-analysis of the deposited data

How the results depend on the processing

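Counts of genes moved with the alveolar RNA of the members and with the limit on low values. The 1010 genes higher than in the remaining cells became 2149 with members under their median surfactant RNA share, 2447 after subtraction of the alveolar profile, 2240 with members under 5%, 1928 with these set against B and T cells, 367 at 50 CPM or more and 1534 with no filter. The 23 lower genes became 1122, 1344, 1194, 1397, 1 and 45 under the same 6 settings. They became 14 and 42 with at least 3 and at least 5 rule genes, 201 with cells weighted equally, 44 with CPM outside the surfactant genes, 12 against alveolar cells and 234 with the named myeloid clusters. At 50 CPM or more, 575 genes were higher and 524 lower at P10 than at E18.5. Requiring 3 or 5 rule genes set the share of members to 8.26% or 4.20% and their median surfactant RNA share to 11.1% or 3.23%. The median log2 ratio of all genes, 0.05, became 0.20, 0.26 and 0.23 under the first 3 settings. The number of clusters ran from 9 to 16 around the 11 reported.

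Over B and T cells the log2 medians turned for contractile (0.75), NK cell (-1.60) and dividing cell markers (-0.16). So did the log2 ratios of Acta2 (0.75), Btk (-0.70), Ccl5 (-0.40), Coro1a (-1.04), Ikzf1 (-1.73), Inpp5d (-1.41), Irf4 (-1.78), Maf (-0.021), Ptprc (-0.55), Rac2 (-1.61) and Syk (-0.062), and Scgb3a1 stood at -1.65 in members under 5% against the remaining cells. Between P10 and E18.5 the medians turned for contractile (0.47) and mast and basophil markers (-0.042) with no filter, and for repair and matrix remodelling with members under their median share (0.30) and after subtraction (2.48). The cause was not tested. The settings with 5% and with named clusters were chosen after seeing the data. No paired analysis was possible because each time point has 1 library, and leaving out a library would leave no comparison. Depth limits genes under 10 CPM, where few UMIs lie behind a ratio.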

Other observations

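Several other gene groups beyond the phagocyte programme showed smaller or mixed differences. NK cell markers, however, were higher in P10 members than in the remaining cells in 2 of 2, with a median log2 ratio of 3.97. They summed to 4060 CPM in the NK cell-like cluster of 13 members and to 11.2 CPM in the other members. Of 7 measured endothelial genes none was 2-fold higher or lower in P10 members than in the remaining cells, with a median log2 ratio of 0.52, and of 4 B cell markers none, with a median of -0.35. Neutrophil markers were higher in 2 of 5, although cells with much S100a8 and S100a9 had been kept out by the rule. The neutrophil list holds S100a8 and S100a9 themselves, and the remaining cells hold the 171 neutrophils kept out by that limit. This count was thus partly set by the rule and does not measure the neutrophil content of the members. Markers of mature dendritic cells were higher in 2 of 6, and of plasmacytoid dendritic cells in 1 of 4. Erythroid genes lay within 2-fold in 3 of 3.

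At P10, B cell markers were higher in members than at E18.5 in 4 of 4, with a median log2 ratio of 2.79, and of 2.77 in the remaining cells. Erythroid genes were lower in 4 of 4, with a median of -2.42 in members and -4.34 in the remaining cells. Airway genes had a median of 0.72 in members and -2.97 in the remaining cells. Dividing cells by at least 5 markers made up 8.42% (6.53 to 10.6%) of P10 members and 5.68% (4.68 to 6.83%) of E18.5 members, and by at least 3 markers after thinning 3.52% (2.31 to 5.11%) of P10 members and 3.28% (2.52 to 4.20%) of E18.5 members.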
